A study of Homo sapiens with 18 samples.

Results

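The 36 genes described here belong to the unfolded protein response and the integrated stress response. They are the rows of the table whose gene name is one of 36 fixed names, with the estimated counts of all transcripts of a name summed, and they make up 36 of 32490 gene names and 285 of 145326 transcripts. They were taken as 2 branches of 18 genes each. The ATF4 branch holds the transcription factor ATF4 and genes that it or its partners switch on, and the endoplasmic reticulum (ER) folding branch holds the stress sensors of the ER with the chaperones, oxidoreductases and degradation genes that serve protein folding there. RNA was sequenced from spheroidal aggregates of the established human cell lines U87 mg (glioblastoma) and DAOY (medulloblastoma), each the single line of its tumour type. Aggregates were embedded in Matrigel in an electrotaxis channel, left for 24 h, and then kept at 250 V/m of direct current electric field (dcEF) for 0 h, 2 h or 8 h, with 3 samples for each of the 6 combinations of line and time and 3 channels pooled into each sample. All groups shared the embedding and the channel, and the labels name no drug and no genetic change. By the study's methods, the 3 samples of a group were chosen from 4 biological replicates, except at 8 h in DAOY, where there were 3. Aggregates held in the channel for the same time with no field were not analysed here, so field and time in the channel cannot be told apart.

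When unfolded proteins collect in the ER, the membrane sensors IRE1 (gene ERN1), PERK (gene EIF2AK3) and ATF6 start separate signals. IRE1 cuts a short intron out of the mRNA of XBP1, ATF6 is cleaved into a transcription factor, and both raise chaperones and degradation genes of the ER. PERK phosphorylates the translation factor eIF2, which lowers protein synthesis but raises the translation of ATF4, and the kinases GCN2, PKR and HRI reach the same factor from amino acid shortage, viral RNA and heme or mitochondrial stress. ATF4 then raises genes for amino acid synthesis and transport, and also PPP1R15A, whose protein (GADD34) removes the phosphate from eIF2 again. Because these steps act on protein and on translation, mRNA levels show only a part of them.

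The splice site that IRE1 uses in XBP1 could be followed in these data, since the annotation lists 1 XBP1 transcript without its 26-base intron and 3 coding transcripts with it. The sequence is shown because the spliced share described below rests on it. It lies in a coding exon at chr22:28796102-28796171 on the minus strand of GRCh38, and capitals mark the 26 bases that are cut out.
XBP1 splice region: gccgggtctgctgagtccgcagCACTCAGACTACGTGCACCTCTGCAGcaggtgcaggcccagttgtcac

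The promoters of the members were searched for 5 known response elements in the 300 bases from 250 before to 50 after each start site, taken from RefSeq on GRCh38.p14, in which 32 of the 36 members and 27305 gene symbols in all had an entry. The elements were the CARE (C/EBP-ATF response element, TGATGNAA), the CRE (TGACGTCA), the UPRE (TGACGTGG), the ERSE (CCAAT and, 9 bases on, CCACG) and the ERSE-II (ATTGG and, 1 base on, CCACG), each on both strands. The CARE was in the promoters of 5 of the 15 ATF4 branch genes with an entry, of 1 of the 17 ER folding branch genes and of 4.46% of all symbols. The ERSE was in 5 of 17 ER folding branch genes, in 0 of 15 ATF4 branch genes and in 0.092% of all symbols, and the ERSE-II in 3 of 17, 0 of 15 and 0.07%. The CRE was found in PPP1R15A alone among the members (2.25% of all symbols) and the UPRE in HYOU1 alone (0.927%), where it overlaps an ERSE-II. These matches describe letters in a window and are no evidence of binding. The windows below show the CARE matches of both branches and the CRE of PPP1R15A, because these are elements that ATF4 and related factors are known to bind, with the match in capitals. No difference between the branches was tested.
ASNS, CARE, chr7:97872459-97872486, minus strand: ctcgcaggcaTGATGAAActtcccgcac
ATF3, CARE, chr1:212565206-212565233, plus strand: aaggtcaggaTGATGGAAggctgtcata
CEBPG, CARE, chr19:33374061-33374088, plus strand: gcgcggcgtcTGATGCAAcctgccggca
CHAC1, CARE, chr15:40953252-40953279, plus strand: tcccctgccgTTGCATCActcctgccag
HERPUD1 (ER folding branch), CARE, chr16:56931956-56931983, plus strand: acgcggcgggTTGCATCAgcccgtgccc
SLC3A2, CARE, chr11:62881726-62881748, plus strand: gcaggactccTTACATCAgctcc
PPP1R15A, CRE, chr19:48872353-48872380, plus strand: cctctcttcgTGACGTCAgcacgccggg

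The next windows show the ERSE and ERSE-II matches, which lay only in ER folding branch genes among the members with an entry.
CALR, ERSE, chr19:12938380-12938406, plus strand: cacgCGTGGTCGACCATCATTGGtcgg
CANX, ERSE, chr5:179698774-179698800, plus strand: ccggCCAATCTTCACACTCCACGaaga
CRELD2, ERSE, chr22:49918550-49918576, plus strand: ctctCGTGGCGAACTCGGATTGGgcca
PDIA6, ERSE, chr2:10812849-10812875, minus strand: cggaCCAATGAGCCGCAGCCACGgctt
XBP1, ERSE, chr22:28800599-28800625, minus strand: ctggCCAATCGCGGAGGGCCACGaccg
HERPUD1, ERSE-II, chr16:56932017-56932043, plus strand: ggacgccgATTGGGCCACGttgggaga
HYOU1, ERSE-II, chr11:119057372-119057398, minus strand: ccccgtgaCGTGGTCCAATcccaggcc
SDF2L1, ERSE-II, chr22:21642106-21642132, plus strand: ctcggaagCGTGGACCAATcaaaaccc

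The estimated counts of a sample summed to between 8341976 and 15610886. Levels are given as TPM (the share of a transcript among all transcripts of a sample, with its length taken into account), and changes as log2 fold changes from edgeR's quasi-likelihood fit of the counts. Their standard error (SE) is approximate, worked out as the absolute log2 fold change over the square root of the test's F. A gene passed when its p-value, adjusted by Benjamini-Hochberg over all genes tested (FDR), was below 0.05. All 36 members passed the filter on low counts. Of the astroglial and cerebellar granule lineage markers, GFAP was at most 3.11 TPM, S100B at most 0.398 TPM, NEUROD1 at most 0.176 TPM and BARHL1 at most 0.0463 TPM in any sample. Others on these lists were measured, with SLC1A3 at 33.0 to 53.1 TPM in U87 mg and 8.74 to 33.6 TPM in DAOY, SOX9 at 6.19 to 13.8 TPM, PAX6 at 17.0 to 35.3 TPM, ZIC1 at up to 15.8 TPM and ZIC2 at up to 20.9 TPM. Of the mesenchymal markers, VIM lay between 1720 and 5340 TPM, CD44 between 885 and 3550, TNC between 162 and 549 and CAV1 between 291 and 933 TPM. FN1 was at 755 to 1510 TPM in U87 mg and 3670 to 8660 TPM in DAOY. THY1 was at 0.0 TPM in U87 mg and 25.3 to 74.2 TPM in DAOY. PTPRC and CD3E of white blood cells and CDH5 and VWF of endothelium were at most 0.719 TPM, while CD68, also on the white blood cell list, was between 247 and 602 TPM in U87 mg and between 10.8 and 43.9 TPM in DAOY. CSF1R reached 12.1 TPM in U87 mg, KDR 2.14 TPM in U87 mg and PECAM1 12.9 TPM in DAOY. In DAOY the mitochondrial share of the counts was 2.92% to 5.70% at 0 h and 5.97% to 8.44% at 8 h, and the summed level of the 6 astroglial markers was 22.1 to 26.7 TPM at 0 h and 39.0 to 43.6 TPM at 8 h. That of the 5 granule lineage markers was 40.0 to 48.4 TPM and 53.3 to 66.6 TPM. The part of these values in the changes of the members was not tested. In U87 mg the mitochondrial shares overlapped, with 4.17% to 5.11% at 0 h and 2.83% to 5.64% at 8 h, but the granule lineage sum was 35.7 to 52.1 TPM at 0 h and 28 to 34.0 TPM at 8 h, and that of the 4 endothelial markers 3.21 to 4.60 TPM and 2.85 to 3.01 TPM. Their part in the changes in U87 mg was not tested either.

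After 8 h, ATF4 was called higher in both lines and a few other genes of its branch in a single line each. Most of the ER folding branch moved little (the plot of the changes of the 36 members). In U87 mg, ATF4 rose 1.80-fold, CHAC1, an enzyme that degrades glutathione, rose 2.56-fold, and EIF2AK3, the gene of the sensor PERK, rose 1.77-fold. In DAOY, ATF4 rose 2.00-fold, PPP1R15A rose 2.28-fold and STC2, a secreted glycoprotein, rose 4.0-fold. No other member passed in its line at 8 h against 0 h by edgeR's test. Of all genes tested, 0.95% in U87 mg and 2.34% in DAOY were called higher. Each of these calls of members was lost in some of the other fits, as given gene by gene below.

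**Figure D1:**
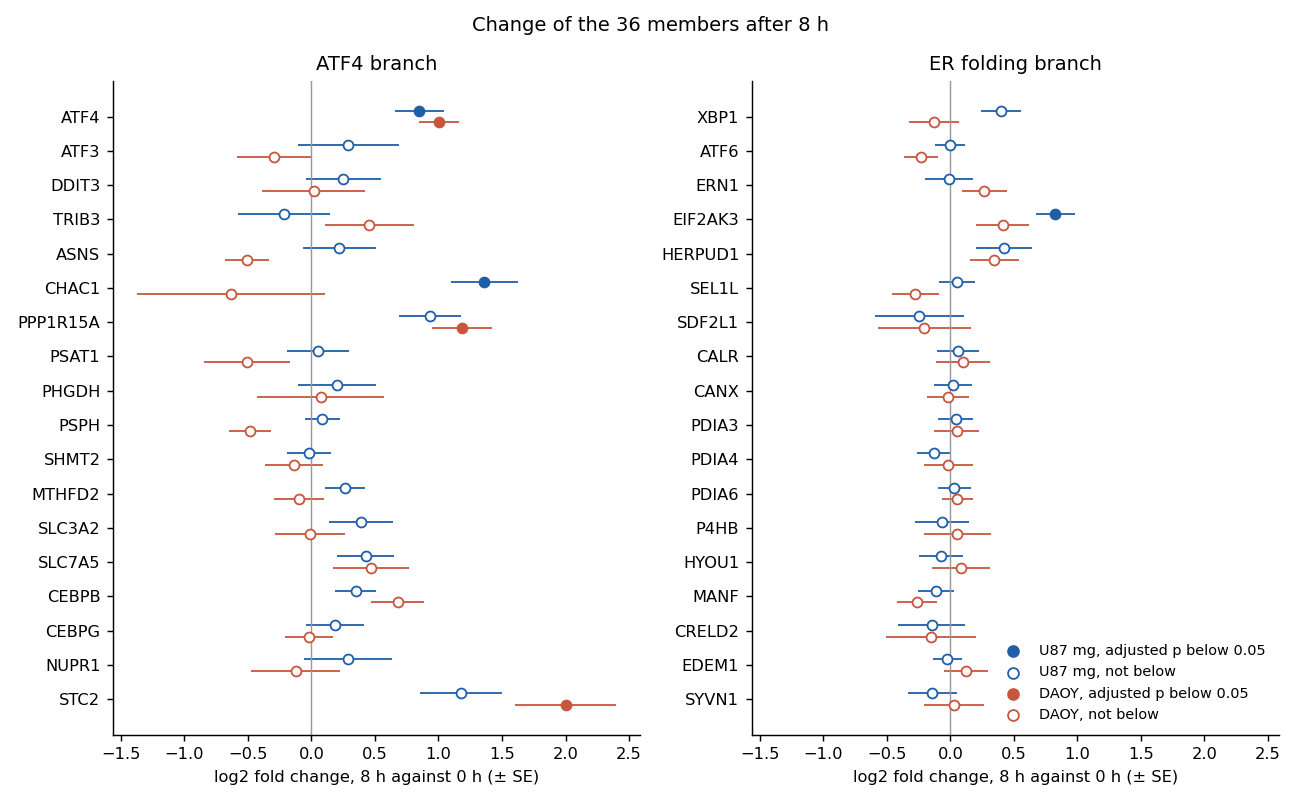
Log2 fold change (± SE) of the 36 members at 8 h against 0 h, with U87 mg in blue and DAOY in red and filled points for an adjusted p below 0.05. The filled points are ATF4, CHAC1 and EIF2AK3 in U87 mg and ATF4, PPP1R15A and STC2 in DAOY, and the points of the chaperones and oxidoreductases (CALR to HYOU1) lie near 0.

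ATF4 (ENSG00000128272, chr22:39519695-39522685 on GRCh38, as for the genes below) is the transcription factor on which the branch turns. In U87 mg its level was 248, 201 and 225 TPM at 0 h, 210, 238 and 184 TPM at 2 h and 426, 280 and 440 TPM at 8 h. All 3 samples at 8 h lay above all samples at 0 h and 2 h, and replicate 1 was the lowest of the 3. The log2 fold change was 0.85 (SE 0.19) at 8 h against 0 h (edgeR adjusted p = 0.0464) and 0.97 (SE 0.19) against 2 h (edgeR adjusted p = 0.0479). In DAOY, ATF4 was at 149, 215 and 230 TPM at 0 h, at 342, 265 and 263 TPM at 2 h and at 372, 365 and 379 TPM at 8 h. The 3 groups ordered by time with 0 h lowest and 8 h highest and did not overlap, and the 8 h samples lay closest together. The change at 8 h against 0 h was 1.00 (SE 0.16, edgeR adjusted p = 0.0106). At 2 h it was 0.53 (SE 0.16), with an edgeR adjusted p of 0.999. In each line 1 transcript, ENST00000396680, carried most of the gene's counts, between 89.7% and 97.2% in every sample. The call at 8 h against 0 h in U87 mg was kept in 2 of 9 fits that left out a sample each (0 h replicate 0 or 8 h replicate 1) and was lost in the others, with an adjusted p of up to 0.258. It was also lost with limma (limma adjusted p = 0.125 and 0.127) and with the replicate number as a block (edgeR adjusted p = 0.0687). The edgeR adjusted p was 0.132 with only the groups compared, 0.0527 with sums by gene identifier and 0.0513 with at least 10 counts in every sample. The call at 8 h against 2 h was kept in 2 of 9 (up to 0.22) and lost with limma and with the replicate number as a block (edgeR adjusted p = 0.0734). Sums by gene identifier lost it as well (edgeR adjusted p = 0.0521). In DAOY the call at 8 h against 0 h was lost without replicate 1 or replicate 2 at 8 h, with an adjusted p of up to 0.0591.

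**Figure D2:**
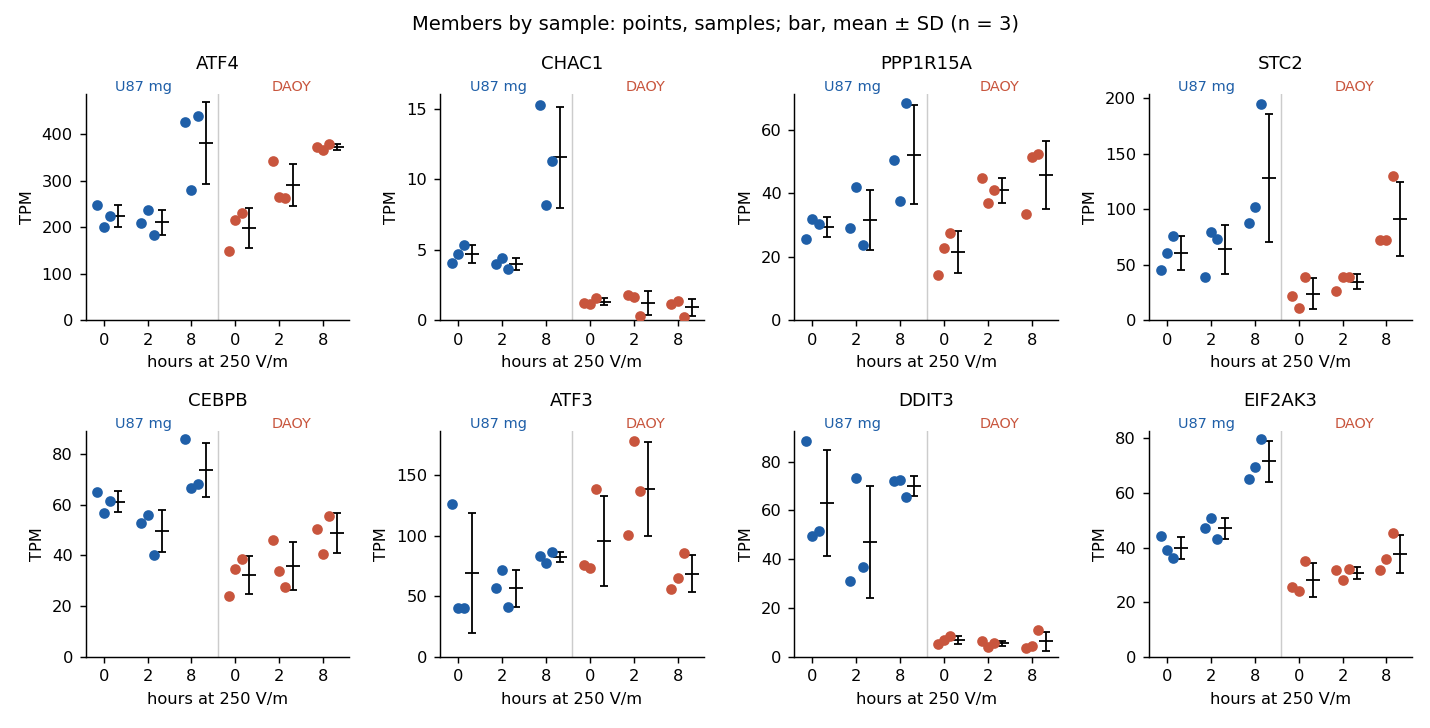
TPM of 8 members in each of the 18 samples, with U87 mg in blue and DAOY in red at 0, 2 and 8 h. Points are samples, and the black bar beside each group is its mean ± SD (n = 3). ATF4, PPP1R15A, STC2 and CEBPB do not overlap between 0 h and 8 h in either line, CHAC1 and EIF2AK3 do not in U87 mg, and DDIT3 is lower in DAOY at each time.

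CHAC1 (ENSG00000128965, chr15:40952962-40956519) was the member with the largest change in U87 mg. It was measured at 4.05, 4.72 and 5.32 TPM at 0 h, at 3.97, 4.43 and 3.6 TPM at 2 h and at 15.3, 8.15 and 11.3 TPM at 8 h. The samples at 8 h all lay above the others, and the values at 0 h and 2 h overlapped. The log2 fold change was 1.36 (SE 0.26) against 0 h (edgeR adjusted p = 0.0288) and 1.58 (SE 0.27) against 2 h (edgeR adjusted p = 0.0349). In DAOY, CHAC1 was between 0.22 and 1.79 TPM in all 9 samples, on 1 to 13 estimated counts, and its change of -0.63 (SE 0.74) at 8 h could not be told from 0 at this depth. The 8 h change in DAOY minus that in U87 mg was -1.98 (SE 0.72), with an edgeR adjusted p of 0.377, so a difference between the lines was not shown. The call at 8 h against 0 h in U87 mg was kept in 3 of 9 fits that left out a sample each (without replicate 0 at 0 h, replicate 2 at 2 h or replicate 1 at 8 h), and the adjusted p reached 0.147 in the others. It was also lost with limma (limma adjusted p = 0.093 and 0.098). The edgeR adjusted p was 0.0556 with the replicate number as a block and 0.102 with only the groups compared. The call at 8 h against 2 h was kept in 3 of 9 (up to 0.184) and lost with limma and with the replicate number as a block (edgeR adjusted p = 0.057). The promoter of CHAC1 (chr15:40953221-40953520, plus strand, GRCh38.p14) is shown whole because the gene passed at 8 h and holds a CARE, in capitals, 209 bases before the RefSeq start.
CHAC1 promoter: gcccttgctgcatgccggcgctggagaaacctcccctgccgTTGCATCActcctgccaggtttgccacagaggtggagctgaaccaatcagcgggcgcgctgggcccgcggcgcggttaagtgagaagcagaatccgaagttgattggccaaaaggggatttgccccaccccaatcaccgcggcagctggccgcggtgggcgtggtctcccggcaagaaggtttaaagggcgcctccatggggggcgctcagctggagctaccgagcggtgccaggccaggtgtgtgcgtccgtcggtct

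PPP1R15A (ENSG00000087074, chr19:48872392-48876057) encodes GADD34, the regulatory subunit that brings a phosphatase to eIF2. In DAOY it was measured at 14.2, 22.7 and 27.5 TPM at 0 h, at 44.8, 37.0 and 41.0 TPM at 2 h and at 33.5, 51.3 and 52.4 TPM at 8 h. All samples at 2 h and 8 h lay above those at 0 h, and the samples at 2 h and 8 h overlapped. The log2 fold change at 8 h was 1.19 (SE 0.24, edgeR adjusted p = 0.022), and at 2 h it was 0.91 (SE 0.24) with an edgeR adjusted p of 0.999, the unadjusted p being 0.0028. The values in U87 mg were 25.7, 31.9 and 30.2 TPM at 0 h, 28.9, 42.1 and 23.6 TPM at 2 h and 50.4, 37.5 and 68.5 TPM at 8 h. The 8 h samples again lay above all 3 at 0 h, but the change of 0.94 (SE 0.24) missed the threshold (edgeR adjusted p = 0.079), and DESeq2 called it (DESeq2 adjusted p = 0.00788). The 8 h changes of the lines differed by 0.26 (SE 0.36, edgeR adjusted p = 0.92). The call in DAOY was lost without replicate 1 or replicate 2 at 8 h, with an adjusted p of up to 0.0901. It was also lost with limma (limma adjusted p = 0.0505 and 0.0522) and with only the groups compared (edgeR adjusted p = 0.0568). The promoter of PPP1R15A (chr19:48872171-48872470, plus strand, GRCh38.p14) is shown for the same reason as that of CHAC1, with its CRE in capitals 58 bases before the start.
PPP1R15A promoter: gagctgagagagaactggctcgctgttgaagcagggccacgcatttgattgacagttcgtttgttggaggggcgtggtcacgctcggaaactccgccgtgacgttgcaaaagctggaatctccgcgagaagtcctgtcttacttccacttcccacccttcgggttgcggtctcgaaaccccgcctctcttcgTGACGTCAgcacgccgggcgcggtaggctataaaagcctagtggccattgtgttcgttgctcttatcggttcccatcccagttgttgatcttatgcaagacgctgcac

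STC2 (ENSG00000113739, chr5:173314713-173329503) showed the largest change of any member in a comparison of times. In DAOY it was at 21.3, 11.2 and 38.7 TPM at 0 h, at 26.5, 38.8 and 38.7 TPM at 2 h and at 72.2, 72.3 and 130 TPM at 8 h. The 8 h samples lay above all others, and the samples at 0 h and 2 h overlapped. The log2 fold change was 2.00 (SE 0.40) at 8 h against 0 h (edgeR adjusted p = 0.022) and 1.502 (SE 0.39) against 2 h (edgeR adjusted p = 0.0763, DESeq2 adjusted p = 0.00398). In U87 mg the levels were 45.4, 60.1 and 75.8 TPM at 0 h, 38.7, 79.5 and 73.5 TPM at 2 h and 87.9, 102 and 195 TPM at 8 h. The 8 h samples stood above those at 0 h and 2 h here too, with a log2 fold change of 1.18 (SE 0.32) that missed the threshold (edgeR adjusted p = 0.093). Between the lines the 8 h changes differed by 0.83 (SE 0.56, edgeR adjusted p = 0.755). The call in DAOY was lost without replicate 1 or replicate 2 at 8 h, with an adjusted p of up to 0.0808. It was also lost with only the groups compared (edgeR adjusted p = 0.0529).

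CEBPB, a transcription factor that pairs with ATF4, was at 65.1, 56.8 and 61.7 TPM at 0 h, at 52.8, 56.1 and 40.2 TPM at 2 h and at 86.1, 66.6 and 68.4 TPM at 8 h in U87 mg. In DAOY it was at 23.9, 34.5 and 38.6 TPM, at 46.0, 33.9 and 27.5 TPM and at 50.5, 40.5 and 55.7 TPM. The 8 h samples did not overlap with those at 0 h in either line. The changes at 8 h against 0 h, 0.35 (SE 0.16) in U87 mg and 0.68 (SE 0.21) in DAOY, missed the threshold, with edgeR adjusted p-values of 0.314 and 0.0853, and DESeq2 called that in DAOY (DESeq2 adjusted p = 0.0298). An annotated antisense gene, CEBPB-AS1, overlaps CEBPB, and the authors' strand setting is not given in the sources used here, so its reads may be shared. The same holds for ASNS, SHMT2, MTHFD2, SLC7A5, CALR, CANX, PDIA3, PDIA6, P4HB, HYOU1, CRELD2, EDEM1 and SYVN1, which have annotated genes on the opposite strand as well.

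In U87 mg at 8 h, 16 of the 18 ATF4 branch genes had a log2 fold change above 0 with a median of 0.28, against a median of -0.001 over the 14106 genes tested, and the branch median was between 0.23 and 0.28 under the other settings. In DAOY, 8 of the 18 were above 0 with a median of -0.01, which was also the median of the 15396 genes tested. Of the branch, 2 of 18 genes passed upward in U87 mg and 3 of 18 in DAOY, against 0.95% and 2.34% of all genes tested called higher and 0.773% and 3.5% called lower. With a log2 fold change of at least 1 required as well, CHAC1 remained in U87 mg (0.184% of all genes called higher) and ATF4, PPP1R15A and STC2 in DAOY (1.19%). Counting samples only, 5 of 18 had all 3 values at 8 h above all 3 at 0 h in U87 mg (ATF4, CHAC1, PPP1R15A, CEBPB and STC2), where 5.8% of all genes did so and 10.2% lay wholly below. In DAOY, 4 of 18 did (ATF4, PPP1R15A, CEBPB and STC2) against 8.86% of all genes, and ASNS and PSPH lay wholly below, as 15.0% of all genes did.

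The genes of amino acid supply, which ATF4 is known to switch on, did not pass in any comparison of times by edgeR's test, although without the filter on low counts SLC3A2 passed at 8 h against 2 h in U87 mg (edgeR adjusted p = 0.0475). ASNS (asparagine synthetase), PSAT1, PHGDH and PSPH (serine synthesis), SHMT2 and MTHFD2 (one-carbon metabolism of the mitochondria) and SLC3A2 and SLC7A5 (the subunits of an amino acid transporter) had log2 fold changes between -0.02 and 0.43 at 8 h in U87 mg and between -0.51 and 0.47 in DAOY. In DAOY, ASNS was at 67.9, 39.5 and 54.8 TPM at 0 h, at 37.5, 34.3 and 36.6 TPM at 2 h and at 33.0, 35.1 and 29.7 TPM at 8 h. All of its later samples lay below those at 0 h, with a change at 8 h of -0.51 (SE 0.17) that missed the threshold (edgeR adjusted p = 0.114). ASNS was singled out after its values were seen. SLC3A2 was at 52.3, 74.9 and 119 TPM at 0 h, at 120, 107 and 87.5 TPM at 2 h and at 76.5, 69.4 and 78.3 TPM at 8 h in DAOY, where the 0 h and 2 h samples overlapped, with a change of 0.52 (SE 0.28) at 2 h. PHGDH in U87 mg was at 26.7, 33.5 and 45.3 TPM at 0 h, at 26.1, 31.4 and 23.0 TPM at 2 h and at 59.5, 26.6 and 28.1 TPM at 8 h. A single 8 h sample, replicate 0, stood above the rest there.

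The transcription factors ATF3 and DDIT3 (CHOP) varied widely between replicates in some groups of U87 mg. In U87 mg, ATF3 was at 126, 40.2 and 40.6 TPM at 0 h, at 56.5, 72.0 and 41.3 TPM at 2 h and at 83.6, 77.9 and 86.2 TPM at 8 h. Replicate 0 at 0 h stood above all other samples, and the change at 8 h was 0.29 (SE 0.40, edgeR adjusted p = 0.81) with it and 1.15 without it (edgeR adjusted p = 0.0172). The same sample had the highest DDIT3, ASNS and HERPUD1 values of its group, 88.3, 129 and 192 TPM, where the other samples at 0 h had 49.7 and 51.5, 59.0 and 80.6, and 110 and 98.2 TPM. DDIT3 was at 31.0, 73.4 and 36.7 TPM at 2 h and at 72.1, 72.5 and 65.3 TPM at 8 h in U87 mg, so that the 0 h samples lay both above and below those at 8 h, and its change was 0.25 (SE 0.30, edgeR adjusted p = 0.767) at 8 h. DDIT3 overlaps MARS and MBD6 on the opposite strand. In DAOY, ATF3 was at 76.0, 73.0 and 139 TPM at 0 h, at 101, 179 and 137 TPM at 2 h and at 55.6, 64.8 and 86.0 TPM at 8 h. Its 8 h samples lay wholly below its 2 h samples, with a log2 fold change of -0.85 (SE 0.29) between 8 h and 2 h that missed the threshold (edgeR adjusted p = 0.154). CEBPG, a partner of ATF4, TRIB3, a pseudokinase that binds it, and NUPR1, a small chromatin protein, had changes between -0.22 and 0.46 at 8 h in both lines.

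The ER folding branch opens with its sensors. EIF2AK3 (ENSG00000172071, chr2:88556741-88627576) was at 44.3, 39.1 and 36.3 TPM at 0 h, at 47.2, 50.9 and 43.2 TPM at 2 h and at 65.2, 69.6 and 79.8 TPM at 8 h in U87 mg. All samples at 8 h lay above all at 0 h and 2 h, with a log2 fold change at 8 h of 0.83 (SE 0.15, edgeR adjusted p = 0.0246). In DAOY the values were 25.4, 23.9 and 35.2 TPM, 31.9, 28.2 and 32.1 TPM and 31.8, 35.9 and 45.2 TPM, with overlapping groups and a change of 0.41 (SE 0.21, edgeR adjusted p = 0.271). The difference of the 8 h changes was -0.40 (SE 0.28, edgeR adjusted p = 0.76). The call in U87 mg was kept in 5 of 9 fits that left out a sample each and was lost without replicates 1 or 2 at 0 h, replicate 1 at 2 h or replicate 2 at 8 h, with an adjusted p of up to 0.147. It was also lost with limma (limma adjusted p = 0.0584 and 0.0583). The edgeR adjusted p was 0.0544 with the replicate number as a block and 0.0959 with only the groups compared. On the opposite strand EIF2AK3 overlaps AC104134.1 and AC062029.1, whose reads may be shared. ERN1 and ATF6 had changes of -0.012 and -0.002 in U87 mg and of 0.27 and -0.23 in DAOY at 8 h.

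The mRNA of XBP1, the substrate of IRE1, was at 189, 147 and 146 TPM at 0 h and at 174, 194 and 232 TPM at 8 h in U87 mg, with a change of 0.40 (SE 0.16, edgeR adjusted p = 0.238). In DAOY it was at 91.5, 75.4 and 122 TPM at 0 h and at 74.0, 71.9 and 99.3 TPM at 8 h, with a change of -0.13 (SE 0.20). XBP1 was singled out for the splice site above. The spliced share of the XBP1 counts, spliced over spliced and unspliced coding transcripts, was 24.5%, 26.1% and 21.7% at 0 h, 23.4%, 33.9% and 40.0% at 2 h and 24.3%, 29.9% and 31.3% at 8 h in U87 mg. In DAOY the shares were 23.7%, 5.48% and 25.9% at 0 h, 47.1%, 22.9% and 17.8% at 2 h and 23.2%, 18.4% and 35.0% at 8 h. The groups overlapped in all comparisons, and DAOY replicate 1 at 0 h, with 47.9 spliced and 826 unspliced estimated counts, was the lowest.

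**Figure D3:**
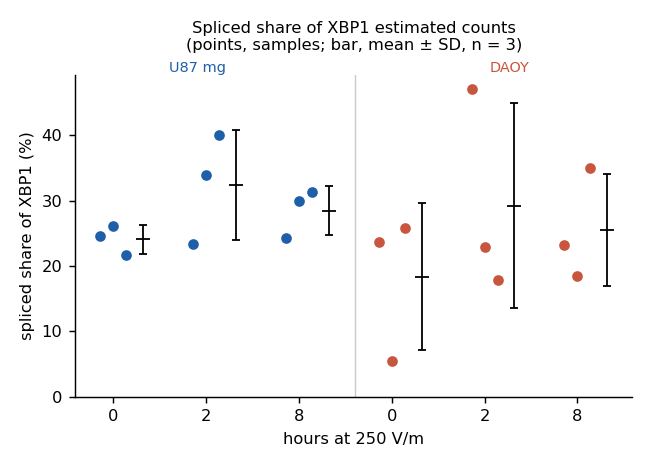
Spliced share of XBP1 in percent of its spliced and unspliced estimated counts in each sample, with U87 mg in blue and DAOY in red at 0, 2 and 8 h, and the mean ± SD (n = 3) in black. All groups overlap, with means between 18.4% and 32.4%.

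The mean shares were 24.1% ± 2.21 at 0 h, 32.4% ± 8.40 at 2 h and 28.5% ± 3.71 at 8 h in U87 mg and 18.4% ± 11.2, 29.2% ± 15.6 and 25.5% ± 8.57 in DAOY (SD, n = 3 each). By a two-sided exact permutation test the differences from 0 h had p-values of 0.3 at 2 h and 0.3 at 8 h in U87 mg and of 0.6 and 0.6 in DAOY, where 3 samples against 3 allow no p below 0.1, and all 4 were 0.6 after adjustment. The XBP1 transcripts also differ in length beyond the 26 bases, and how reads were divided between them was not tested.

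The chaperones and oxidoreductases of the ER included the members with the highest median TPM in both lines. CANX (calnexin) lay between 1320 and 1960 TPM in U87 mg and between 881 and 1620 TPM in DAOY, PDIA3 between 815 and 1350 and between 666 and 1050 TPM, P4HB between 604 and 1420 and between 201 and 330 TPM, and CALR (calreticulin) between 405 and 679 and between 280 and 555 TPM. At 8 h against 0 h, CALR, CANX, PDIA3, PDIA4, PDIA6, P4HB and HYOU1 had log2 fold changes between -0.13 and 0.06 in U87 mg and between -0.02 and 0.10 in DAOY. The secreted or luminal factors MANF, CRELD2 and SDF2L1 had changes between -0.24 and -0.11 in U87 mg and between -0.26 and -0.15 in DAOY. Of the degradation genes, HERPUD1 changed by 0.42 (SE 0.22, edgeR adjusted p = 0.384) in U87 mg and 0.35 (SE 0.19, edgeR adjusted p = 0.312) in DAOY, and SEL1L, SYVN1 and EDEM1 by values between -0.14 and 0.05 and between -0.27 and 0.12. Without replicate 0 at 0 h, HERPUD1 passed in U87 mg with 0.75 (edgeR adjusted p = 0.0319).

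Over the 18 ER folding branch genes the median change at 8 h was -0.01 in U87 mg and 0.04 in DAOY, and with limma on log2(TPM + 1) it was -0.10 and -0.15, where the median of all genes was -0.06 in both. The direction of the median in DAOY therefore differed between the fit of counts and limma on TPM values. With RLE scaling and with DESeq2 it was 0.06, and which part of the limma setting turned it was not tested. EIF2AK3 was the only branch gene past the threshold by edgeR's test in U87 mg, 1 of 18 where 0.95% of all genes were called higher. In DAOY 0 of 18 passed, where 2.34% of all genes were called higher and 3.5% lower, and DESeq2 and limma called 0. There 0 of 18 also had an unadjusted p under 0.05, against 3502 of the 15396 genes tested. Counting samples only, EIF2AK3 lay wholly above and EDEM1 wholly below its 0 h values at 8 h in U87 mg (5.8% and 10.2% of all genes), and ATF6 wholly below in DAOY (15.0%). The log2 fold changes of EDEM1 and ATF6 were -0.02 (SE 0.12) and -0.23 (SE 0.14) and missed the threshold.

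At 2 h, 0 members passed in either line by edgeR's test, as did 0.0% of all genes in U87 mg and 0.0% in DAOY, and DESeq2 and limma also called 0 members. At an unadjusted p under 0.05 there were 2 members in U87 mg (EIF2AK3 and CALR) and 3 in DAOY (ATF4, PPP1R15A and ASNS). Of all genes tested, 1239 of 14106 in U87 mg and 424 of 15396 in DAOY were under it too. CALR in U87 mg was at 405, 628 and 679 TPM at 0 h, at 439, 513 and 413 TPM at 2 h and at 561, 610 and 516 TPM at 8 h, with replicate 0 the lowest at 0 h. P4HB was at 604, 891 and 1418 TPM, at 764, 887 and 635 TPM and at 981, 699 and 819 TPM, again with replicate 0 the lowest at 0 h. Without that sample, CALR and P4HB passed at 2 h with log2 fold changes of -0.55 and -0.58 (edgeR adjusted p = 0.0351 and 0.0373), and SEL1L with 0.47 (edgeR adjusted p = 0.0434). With it, the changes were -0.37 (SE 0.16), -0.34 (SE 0.21) and 0.31 (SE 0.14). In DAOY, ATF4 and PPP1R15A lay wholly above their 0 h values at 2 h, as 3.59% of all genes did, and ASNS and PSPH wholly below, as 3.88% did. In U87 mg, PSPH, ATF6 and SEL1L lay wholly above at 2 h (10.8% of all genes) and CEBPB wholly below (4.49%).

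Between 2 h and 8 h, ATF4 and CHAC1 passed upward in U87 mg, with the losses given above, where 0.369% of all genes were called higher and 0.454% lower. In DAOY 0 members passed by edgeR's test (0.669% of all genes higher and 0.916% lower). There 4 members had an unadjusted p under 0.05 (ATF4, ATF3, CEBPB and STC2), as did 2877 of the 15396 genes tested. DESeq2 called 1 member, which was STC2, and limma called 0. SDF2L1, a luminal ER protein, was at 10.5, 7.25 and 5.38 TPM at 2 h and at 5.16, 4.33 and 3.89 TPM at 8 h in DAOY, where its samples at 0 h had 3.65, 6.02 and 7.34 TPM. Its samples at 8 h lay below those at 2 h by a log2 fold change of -0.68 (SE 0.36, edgeR adjusted p = 0.342). The test of the 8 h change in DAOY minus that in U87 mg called 0 members and 0.0121% of all genes. DESeq2 and limma also called 0 members. At an unadjusted p under 0.05 there were 2 members (CHAC1 and PSPH) and 1463 of the 16482 genes tested.

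Without the field, most members were lower in DAOY than in U87 mg (the plot of levels at 0 h). Of the 36, 22 were lower and 2 higher, 11 lower and 1 higher in each branch, where 27.9% of all genes were called lower and 32.8% higher. The median log2 difference, DAOY minus U87 mg, was -0.97 in the ATF4 branch and -0.58 in the ER folding branch, against 0.05 over the 16482 genes tested. With limma on log2(TPM + 1) the medians were -0.82 and -0.50 against 0.12 over all genes. DDIT3 differed most, with 88.3, 49.7 and 51.5 TPM in U87 mg and 5.16, 6.93 and 8.70 TPM in DAOY, a log2 difference of -3.27 (SE 0.38, edgeR adjusted p = 1.11e-06).

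**Figure D4:**
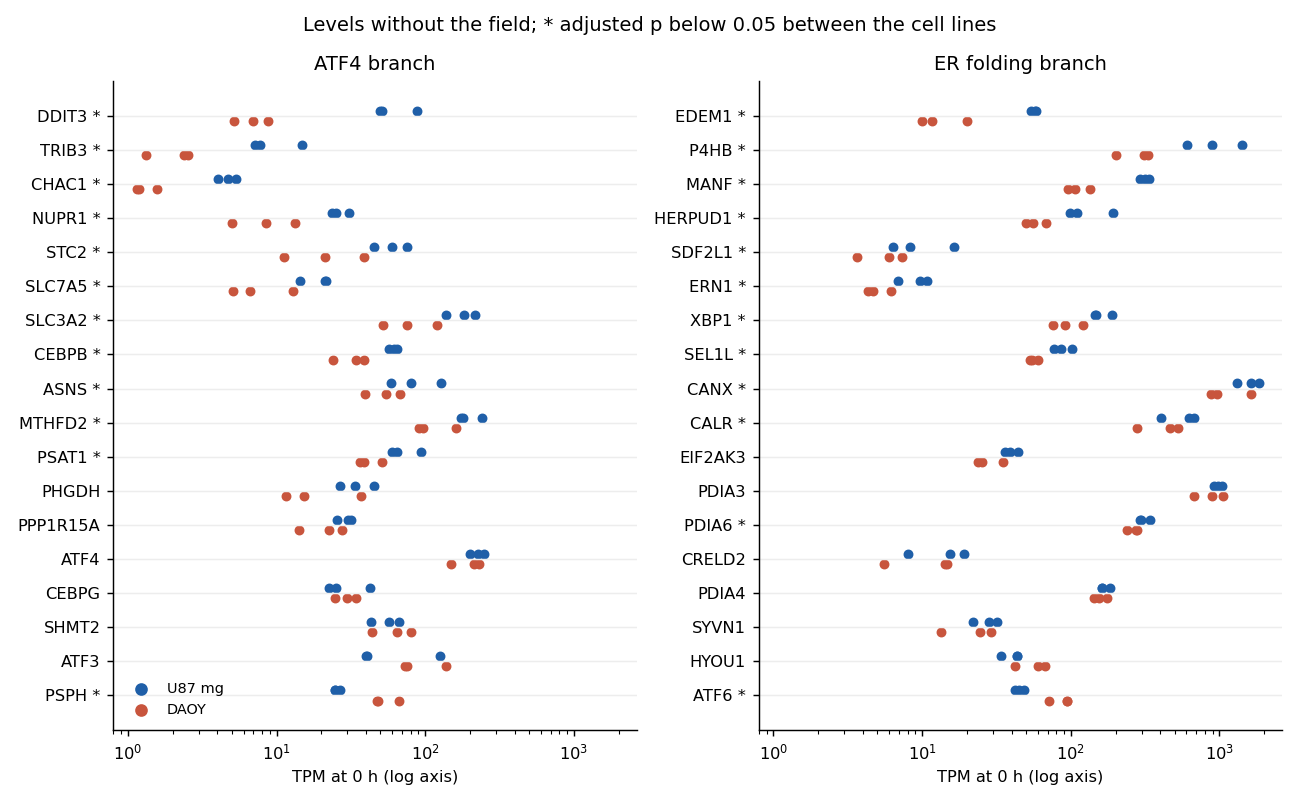
TPM of the 36 members in the 3 samples of each line at 0 h on a log axis, U87 mg in blue and DAOY in red, ordered within each branch by the fitted difference, with an asterisk for an adjusted p below 0.05. At the top the lines are apart, as for DDIT3, TRIB3, EDEM1 and MANF, and at the bottom PSPH and ATF6 are higher in DAOY.

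In the ATF4 branch, TRIB3 followed with -2.35 (SE 0.40), CHAC1 with -1.96 (SE 0.49), NUPR1 with -1.68 (SE 0.37), STC2 with -1.40 (SE 0.41), SLC7A5 with -1.34 (SE 0.29), SLC3A2 with -1.31 (SE 0.29) and CEBPB with -1.02 (SE 0.19). ASNS, MTHFD2 and PSAT1 were lower by less than 1 on the log2 scale, and PSPH was higher by 0.70 (SE 0.13, edgeR adjusted p = 0.000187). The call of PSAT1 was kept under 6 of 9 other settings and that of CHAC1 under 7 of the 8 that tested it. The other calls of this branch were kept under all 9. The 6 genes of this branch that did not pass were ATF4, ATF3, PPP1R15A, PHGDH, SHMT2 and CEBPG. ATF4 itself was at 248, 201 and 225 TPM in U87 mg and at 149, 215 and 230 TPM in DAOY, overlapping values with a difference of -0.29 (SE 0.18, edgeR adjusted p = 0.173), while several of its known target genes differed.

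In the ER folding branch, EDEM1, which directs misfolded glycoproteins to degradation, was at 58.3, 53.8 and 57.7 TPM in U87 mg and at 19.9, 9.98 and 11.6 TPM in DAOY, a log2 difference of -2.43 (SE 0.15, edgeR adjusted p = 6.98e-10). P4HB differed by -1.65 (SE 0.26) on the log2 scale, MANF by -1.47 (SE 0.15), HERPUD1 by -1.37 (SE 0.23) and SDF2L1 by -1.02 (SE 0.36). XBP1, ERN1, SEL1L, CALR, CANX and PDIA6 were also lower, with differences between -0.89 and -0.33, and ATF6 was higher by 0.42 (SE 0.13, edgeR adjusted p = 0.00948). Under 9 other settings the call of PDIA6 was kept in 3, those of CALR and SDF2L1 in 5 each, that of CANX in 7 and that of ATF6 in 8. The other calls of this branch were kept in all 9. EIF2AK3, PDIA3, PDIA4, HYOU1, CRELD2 and SYVN1 did not pass. The genes named in this comparison were chosen after their values were seen, as the largest or the exceptions. Each tumour type is represented by a single line, so what belongs to the line and what to the tumour type cannot be told apart.

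The wider pathway was followed with lists of other genes. Of 34 other known ATF4 target genes tested in U87 mg, edgeR's test called SLC38A2 at 8 h, upward (0.95% of all genes were called higher), where DESeq2 called 3 higher and limma 0. Of 36 tested in DAOY, edgeR called SLC38A2 higher and EPRS lower (2.34% and 3.5% of all genes), DESeq2 called 1 higher and 1 lower, and limma 0 higher and 2 lower. SLC38A2, an amino acid transporter, was at 440, 432 and 329 TPM at 0 h and at 565, 598 and 629 TPM at 8 h in U87 mg, and at 1058, 635 and 593 TPM and 1241, 1515 and 1413 TPM in DAOY. The groups did not overlap in either line, with log2 fold changes of 0.76 (SE 0.16, edgeR adjusted p = 0.0386) and 1.05 (SE 0.22, edgeR adjusted p = 0.0261). EPRS, a tRNA synthetase, was at 116, 96.1 and 131 TPM at 0 h and at 65.6, 63.5 and 70.8 TPM at 8 h in DAOY, a change of -0.65 (SE 0.16, edgeR adjusted p = 0.0389).

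Of 17 other genes that act on eIF2 or are part of it, PPP1R15B passed upward in both lines at 8 h and IMPACT downward in DAOY by edgeR's test. Of all genes, 0.95% were called higher in U87 mg, and 2.34% higher and 3.5% lower in DAOY. Among the 17, DESeq2 made the same numbers of calls, and limma called 0, with 3 at an unadjusted p under 0.05 in each line. PPP1R15B (CReP), the constitutive counterpart of GADD34 in removing the phosphate from eIF2, was at 29.2, 24.9 and 23.3 TPM at 0 h and at 35.1, 38.3 and 40.2 TPM at 8 h in U87 mg. In DAOY it was at 57.1, 53.5 and 66.5 TPM at 0 h and at 78.9, 105 and 89.9 TPM at 8 h. Its 8 h samples all lay above those at 0 h, with changes of 0.63 (SE 0.13, edgeR adjusted p = 0.0356) and 0.69 (SE 0.17, edgeR adjusted p = 0.046). IMPACT, an inhibitor of the kinase GCN2, was at 42.6, 37.8 and 43.2 TPM at 0 h and at 23.1, 21.8 and 34.1 TPM at 8 h in DAOY, a change of -0.82 (SE 0.19, edgeR adjusted p = 0.0334).

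Among 49 other genes of ER folding and translocation, 0 passed at 8 h in U87 mg (5 at an unadjusted p under 0.05, 0 by DESeq2 and 0 by limma). In DAOY 1 passed downward, where 3.5% of all genes were called lower. The gene was MBTPS2, the protease that makes the second cut of ATF6, with 24.1, 19.5 and 22.3 TPM at 0 h and 11.8, 12.1 and 13.4 TPM at 8 h, a change of -0.80 (SE 0.17, edgeR adjusted p = 0.028). Of 25 other genes of ER-associated degradation, 0 passed at 8 h in U87 mg (3 at an unadjusted p under 0.05) and 0 in DAOY (1 at an unadjusted p under 0.05), and DESeq2 and limma called 0 in both. Over all genes tested, an unadjusted p under 0.05 was reached by 2241 of 14106 in U87 mg and 3502 of 15396 in DAOY. Of 9 fits that left out a sample each, these calls outside the 36 members were kept in 1 to 4, and that of SLC38A2 in DAOY in 5. At 0 h, 21 of 36 other ATF4 target genes were lower in DAOY than in U87 mg and 4 higher, and for the 49 folding and translocation genes the counts were 25 and 6, for the 25 degradation genes 11 and 5, and for the 17 genes of eIF2 4 and 7, where 27.9% of all genes were called lower and 32.8% higher.

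For single transcripts of the members the data were less certain. Of 138 member transcripts tested in U87 mg and 114 in DAOY, 0 passed in any of the 6 comparisons of times by edgeR's test, with between 7 and 20 at an unadjusted p under 0.05, while DESeq2 called between 1 and 8 of them and between 185 and 1876 of all transcripts. Since edgeR called 0 of all 40613 transcripts in U87 mg and 0 of all 41336 in DAOY, its count of 0 says nothing particular of the members. The main transcript of ATF4 had a log2 fold change of 0.83 in U87 mg and 0.99 in DAOY at 8 h, and those of PPP1R15A and STC2 had 1.14 and 1.97 in DAOY, close to the values of the summed genes. The transcript of CHAC1 with the most counts, ENST00000617768, carried between 0% and 100% of them from sample to sample, so the change of CHAC1 could not be followed in a single transcript.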

How the data were processed

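RNA from 18 samples of U87 mg and DAOY aggregates (3 per line and exposure time) was sequenced from stranded poly-A libraries. The authors assigned reads with kallisto 0.43.0 to the transcripts of GENCODE 24. For each sample they deposited estimated counts and TPM values by transcript, unscaled otherwise. The p-values, q-values and log2 fold change columns that the authors deposited hold their own sleuth 0.28.1 comparisons and were not used. Whether the strand option was set is not given in the sources used here.

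Here estimated counts were summed by the gene name deposited with each transcript and rounded. The sums were filtered with filterByExpr, scaled by TMM and tested with edgeR 4.0.16 in R 4.3.3 (glmQLFit and glmQLFTest, Benjamini-Hochberg adjustment). GENCODE 29, which matched 99.2% of transcripts, gave the gene identifiers, positions and exons. The 9 samples of a line shared a fit for comparisons of times, and all 18 did for comparisons of lines. Alternatives were DESeq2 1.42.0, limma 3.58.1 on log2(TPM + 1) and log2(TPM + 0.1), RLE scaling, other filters, a replicate block, fewer groups, sums by gene identifier and each sample left out. Same-numbered U87 mg samples at 2 h and 8 h deviated together (r = 0.263, 0.146 and 0.192), in the data only, so the block is given for that comparison. XBP1 shares used an exact permutation test. The procedure was tested on simulated data with changes larger than most of those called here and the same dispersion for all genes. How well smaller changes are recovered was not tested. Named singly were members past the threshold in a comparison of times, then those with the largest change up to 5 per comparison. The members and lists were chosen with earlier results of these data known. Labels call the samples biological replicates, and counts carry no molecular identifiers, so statements on depth cover counting error only.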

Additional observations from a re-analysis of the deposited data

Results flagged for a closer look

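PSPH, the last enzyme of serine synthesis, moved in opposite directions in the lines at 2 h when TPM values are compared: all 3 samples at 2 h lay above those at 0 h in U87 mg (28, 29.8 and 29.2 against 26.6, 24.6 and 24.8 TPM, a log2 ratio of the means of 0.19) and below them in DAOY (42.9, 45.2 and 37.9 against 66.5, 47.5 and 48.0 TPM, a log2 ratio of -0.36). The difference between the lines was not tested at 2 h. In the fits of the counts, the changes were -0.04 (SE 0.14) and -0.21 (SE 0.16), so the rise in U87 mg rests on the TPM scale.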

How the results depend on the processing

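Of the 8 calls of members in comparisons of times, all kept their direction under every alternative. Counted over calls and other settings, the call was kept 47 times and lost 25 times, and counted over calls and samples left out it was kept 36 times and lost 36 times. The number of members past the threshold at 8 h against 0 h in U87 mg was 3, and it was 0 with limma on log2(TPM + 1), 0 with limma on log2(TPM + 0.1), 0 with only the groups compared, 5 without a filter on low counts, 1 with a log2 fold change of at least 1 required, and 0 to 5 with a sample left out. At 8 h against 2 h in U87 mg it was 2, and it was 4 with DESeq2, 0 with both limma fits, 7 without a filter, 1 with sums by gene identifier, 1 with the fold required, and 0 to 4 with a sample left out. At 8 h in DAOY the 3 became 1 with only the groups compared, 2 with both limma fits and 4 with DESeq2. With a sample left out there were 0 to 3 (0 without replicate 1 or 2 at 8 h). Against 2 h the 0 became 1 with DESeq2, 2 without a filter, 1 with only the groups compared and 0 to 1 with a sample left out. At 2 h in U87 mg it was 0 to 3 with a sample left out. Between the lines at 0 h the 24 became 13 with the fold required, and 22 to 25 with a sample left out. The cause of these differences was not tested. The 24 calls between the lines were kept 194 times and lost 21 times over other settings, and kept 421 times and lost 11 times over samples left out. The spliced share of XBP1 differed by 8.31, 4.38, 10.9 and 7.18 percentage points from 0 h (U87 mg at 2 h and 8 h, DAOY at 2 h and 8 h) and kept its sign with TPM and with any sample left out (4.53 to 12.8, 2.97 to 6.48, 1.98 to 16.6 and 0.74 to 10.9). For transcripts of the members, DESeq2 called 1, 5, 8, 3, 8 and 3 (U87 mg at 2 h, at 8 h and 8 h against 2 h, then DAOY) where edgeR called 0, and edgeR without a filter called 1 in DAOY at 2 h and 1 at 8 h. CHAC1 in DAOY is limited by its depth of 1 to 13 counts.

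Over all times, same-numbered replicates did not all deviate together (correlations from -0.175 to 0.263 in U87 mg and from -0.200 to 0.437 in DAOY, with 5 and 2 of 9 pairs over 0.1), so the numbers were not taken as a pairing in general. Between 2 h and 8 h in U87 mg all 3 did, and the blocked values stand beside those calls. In DAOY the correlations between 2 h and 8 h were also above 0 (0.437, 0.0653 and 0.0989). With the block, 0 members passed in DAOY at 8 h against 2 h, as without it. With the replicate number as a block, 1 member passed at 8 h in U87 mg, which was STC2, 0 at 8 h against 2 h, 3 at 8 h in DAOY, 0 in the comparisons of 2 h and 18 between the lines.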
